A study of Mus musculus with 8 samples.

Results

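Open chromatin was studied here where the mouse genome holds no protein-coding gene nearby. Of 175276 regions that were open in at least 1 of 8 libraries, 13339 (7.61%) had a midpoint more than 100 kb from every protein-coding gene body of the RefSeq table for GRCm38.p6 (mm10). They are called far regions below. A region is a stretch where the peaks of the 8 deposited lists overlapped by at least 1 bp. The choice used position only, not peak height or any comparison of groups. Genes for long non-coding RNAs (lncRNAs) and the V, D, J and C segments of antigen receptors are not protein-coding in that table, so regions inside them can be far regions. The other regions on chromosomes 1 to 19, X and Y numbered 161642, and 295 regions on unplaced sequences were set aside.

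The assay was ATAC-seq, in which a transposase inserts adapters into accessible DNA. Naive CD4+ T cells were FACS-sorted from mouse spleen and stimulated through CD3 and CD28 with 20 ng/mL TGF-β for 48 h, with or without 100 U of IL-2. The 90000 cells of each library carried either the control genotype (labelled WT) or the Tet1/3 conditional double knockout (cDKO), which lacks 2 of the enzymes that oxidise methylated cytosine. There were thus 4 groups of 2 libraries: control without IL-2, cDKO without IL-2, control with IL-2 and cDKO with IL-2. All had TGF-β, so no group shows the cells without it. The sources used here give no Cre driver, age or number of animals. The design text calls the replicates biological, but p-values below measure only the spread between these libraries.

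A gene's enhancers can lie very far from its promoter, and T cell genes with complex regulation often sit beside long intervals without other genes. Such intervals are called gene deserts. Many of them hold mostly closed chromatin, while others carry arrays of enhancers active in particular cell types. Distance to a gene says nothing by itself about which gene, if any, an open region controls, and the nearest gene is named below only to give a position.

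Some far regions cover the start of an lncRNA. The starts of 57 lncRNA genes, with 64 start positions in the RefSeq promoter table, lay in far regions that were listed in every library. The 6 sequences below are printed because they show what the open DNA holds at such starts. They are the 4 with the strongest peaks, and Morrbid and Firre, which were chosen after their values were seen because each lies in a dense cluster described below. Morrbid is an lncRNA known for restraining the pro-apoptotic gene Bcl2l11, and Firre is an X-linked lncRNA known for its role in nuclear organisation. Each line gives 300 bases from RefSeq (GRCm38.p6), 5′ to 3′ on the strand of the gene. Capitals mark matches on either strand to TGANTCA (the AP-1 motif), TGTGGTT (RUNX) or CCGGAAG (ETS), which are motifs of factors that are active in T cells.
Gm41331, chr15:60141576-60141875, plus strand: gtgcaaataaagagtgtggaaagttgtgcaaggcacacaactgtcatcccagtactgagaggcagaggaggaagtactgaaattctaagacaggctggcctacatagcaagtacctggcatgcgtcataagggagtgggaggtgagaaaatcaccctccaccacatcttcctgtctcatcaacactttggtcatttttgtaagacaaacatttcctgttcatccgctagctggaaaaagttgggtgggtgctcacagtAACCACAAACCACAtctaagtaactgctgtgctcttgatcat
Gm14250, chr2:169388794-169389093, plus strand: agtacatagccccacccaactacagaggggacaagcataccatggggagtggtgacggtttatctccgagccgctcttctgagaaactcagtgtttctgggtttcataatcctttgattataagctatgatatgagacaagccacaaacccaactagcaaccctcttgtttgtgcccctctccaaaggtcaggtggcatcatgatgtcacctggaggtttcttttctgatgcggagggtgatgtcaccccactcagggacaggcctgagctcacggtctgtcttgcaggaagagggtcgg
Gm26901, chr1:7398047-7398346, minus strand: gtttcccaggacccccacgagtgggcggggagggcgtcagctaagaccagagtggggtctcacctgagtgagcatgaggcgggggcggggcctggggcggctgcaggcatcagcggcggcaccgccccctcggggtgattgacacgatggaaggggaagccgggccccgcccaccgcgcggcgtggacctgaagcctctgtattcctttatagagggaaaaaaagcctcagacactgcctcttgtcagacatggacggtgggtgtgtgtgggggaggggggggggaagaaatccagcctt
LOC115487176, chr9:61013180-61013479, plus strand: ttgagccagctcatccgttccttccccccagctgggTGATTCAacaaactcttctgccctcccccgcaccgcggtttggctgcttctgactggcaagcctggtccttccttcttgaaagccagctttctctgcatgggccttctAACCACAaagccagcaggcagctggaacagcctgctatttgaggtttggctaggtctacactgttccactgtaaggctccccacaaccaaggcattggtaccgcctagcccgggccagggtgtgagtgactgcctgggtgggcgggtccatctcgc
Morrbid, chr2:128429302-128429601, minus strand: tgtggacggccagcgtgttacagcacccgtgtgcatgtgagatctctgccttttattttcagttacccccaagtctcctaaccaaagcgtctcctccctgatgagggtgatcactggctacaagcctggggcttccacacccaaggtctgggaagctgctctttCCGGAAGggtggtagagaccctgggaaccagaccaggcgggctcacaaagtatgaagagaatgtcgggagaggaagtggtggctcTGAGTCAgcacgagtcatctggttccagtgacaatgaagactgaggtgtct
Firre, chrX:50635272-50635571, minus strand: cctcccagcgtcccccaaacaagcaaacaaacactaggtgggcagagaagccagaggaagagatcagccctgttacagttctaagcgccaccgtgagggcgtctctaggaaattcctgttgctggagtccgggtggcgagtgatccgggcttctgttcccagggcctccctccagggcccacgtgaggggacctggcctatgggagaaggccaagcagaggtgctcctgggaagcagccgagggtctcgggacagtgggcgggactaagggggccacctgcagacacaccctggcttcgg

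Gm41331 carried 2 adjoining RUNX matches just after its start, and its peak was among the 3258 strongest in every library. LOC115487176 carried 1 AP-1 and 1 RUNX match. Morrbid carried 1 AP-1 match at its start and 1 ETS match 86 bases before it. Gm14250, Gm26901 and Firre held none of the 3 motifs in these windows. Over the 64 starts in far regions of every library, 20.3% held an AP-1 match, 18.8% a RUNX match and 4.69% an ETS match. Among all 11588 lncRNA starts in the table, the shares were 9.31% for AP-1, 6.29% for RUNX and 3.89% for ETS, and among all 32851 starts of any gene they were 7.81%, 5.27% and 8.86%. Among the 2076 lncRNA starts that lie over 100 kb from protein-coding genes, the shares were 10.4%, 6.36% and 2.07%. These shares are a description: a match is not a site, and several starts can belong to 1 gene.

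The lists differed in length, so they were first made equal. The deposited lists held 65811 to 145979 peaks, with 3806 to 9758 far regions each (5.97% to 7.07%), and the shortest was that of control with IL-2, replicate 2. The shortest peak of a list was 90 to 154 bp long, and the 154 bp belonged to that same library. The sources used here give no read depth. The main values below use the same number of peaks from every list, the 65811 with the highest −log10 p, called the equal-number lists. The strength of a peak is its percentile in its own list, with 100 the strongest.

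In the equal-number lists, far regions made up nearly the same share of open chromatin in every library. Their number was 3839 and 3883 in control without IL-2, 3804 and 3991 in cDKO without IL-2, 3794 and 3806 in control with IL-2, and 3556 and 3836 in cDKO with IL-2. As a share of all listed regions this was 5.97% ± 0.133 (SD, n = 8). The lowest library, cDKO with IL-2 replicate 1, stood at 5.71% and the highest, cDKO without IL-2 replicate 2, at 6.18%. Of the 13339 far regions, 6295 (47.2%) were in at least 1 equal-number list, and 7044 were only in the weaker ends of longer lists.

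The share did not separate the genotypes. Far regions were 5.95% of regions in cDKO libraries and 5.99% in control libraries, a difference of -0.0344 percentage points (exact 2-sided permutation test over 70 relabellings, p = 0.714, adjusted over 9 tests 0.743). With IL-2 the share was 5.89% and without it 6.05%, a difference of -0.160 points (exact permutation p = 0.0286, the smallest this design allows, adjusted p = 0.0429). The lowest library without IL-2 and the highest with it were both at 5.97%, so the groups barely separated. This call was lost in 17 other settings and kept in 2. Among the former were the deposited lists (-0.202 points, exact permutation p = 0.514), the fit without antigen receptor loci (-0.128 points, exact permutation p = 0.2) and the replicate block (exact permutation p = 0.125, adjusted 0.188). The smallest exact permutation p the block allows is 0.125, so no call could be kept there. The IL-2 call was also lost on leaving out any one library except cDKO without IL-2 replicate 1.

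Far regions were shared by fewer libraries than other regions. Of the 6295 far regions in at least 1 equal-number list, 2088 (33.2%) were in all 8, against 38566 (43.1%) of the other regions. Those found in a single library numbered 1275 (20.3%) among far regions and 14699 (16.4%) among the others. With the deposited lists, 2880 far regions (21.6%) were in all 8 and 4250 (31.9%) in 1, against 30.5% and 25.3% of the others. Between the 2 extremes the shares were low and alike, as the plot of sharing shows.

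**Figure D1:**
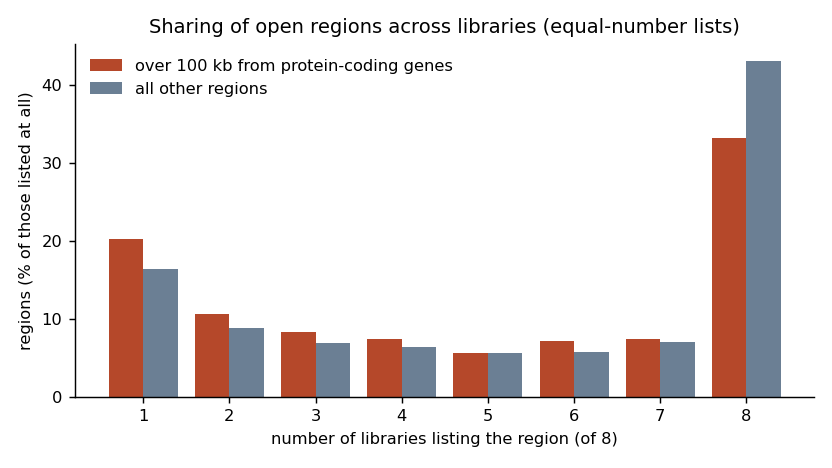
Share of listed regions (y, in percent) by the number of equal-number lists that hold them (x), for far regions and all other regions. At 8 libraries the far bar (33.2%) is below the other bar (43.1%), and at 1 library it is above (20.3% against 16.4%).

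Seen from single libraries, 54.8% of the far regions of a list were in all 8 lists, against 64.2% of its other regions. The difference was -9.44 points (SD 1.25, lower in 8 of 8 libraries, exact 2-sided sign-flip permutation p = 0.00781, the smallest for 8 libraries, adjusted p = 0.0141). A far region also had a lower chance of being in both replicates of its group, 83.2% against 86.6%, a difference of -3.45 points (SD 1.33, 8 of 8 libraries, exact permutation p = 0.00781, adjusted 0.0141). Libraries share regions, so these p-values measure how alike the libraries are in the difference. With 1 library left out, 6 libraries kept a mate, and fewer sign flips make the smallest possible p larger than for 8. The adjusted exact permutation p for both replicates was 0.0563 on leaving out either control library without IL-2 or either cDKO library with IL-2. It was also 0.0563 on leaving out cDKO without IL-2 replicate 2 or control with IL-2 replicate 1.

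The overlap of 2 libraries followed the same order in far regions as elsewhere. The Jaccard index, the share of the regions of either library that both hold, averaged 0.712 between replicates in far regions and 0.765 in the others. Between IL-2 arms of 1 genotype it averaged 0.667 and 0.734, and between genotypes within 1 IL-2 arm 0.632 and 0.702. Where both genotype and IL-2 differed it averaged 0.604 and 0.682. These are means over 4 pairs of replicates and 8 pairs of each other kind, which share libraries, and they were not tested.

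Peaks in far regions ranked lower than other peaks, and the gap lay mostly at gene ends. The median strength percentile was 44.5 in far regions and 51.3 in the others, a difference of -6.86 (SD 0.821, lower in 8 of 8 libraries, exact permutation p = 0.00781, adjusted 0.0141). Median peak width was 301 bp against 348 bp, a difference of -46.4 bp (SD 6.39, 8 of 8 libraries, exact permutation p = 0.00781, adjusted 0.0141). Regions within 1 kb of a gene end had a strength of 80.3 ± 0.716 (SD, n = 8), while regions inside genes stood at 45.0 ± 0.194. Far regions stood at 44.7 from 100 to 200 kb, 43.9 from 200 to 500 kb, 44.9 from 500 to 1000 kb and 46.7 ± 2.53 beyond 1000 kb. Each library's median covers only the regions in its own equal-number list. Of the 236 regions beyond 1000 kb, 86 were in at least 1 such list.

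**Figure D2:**
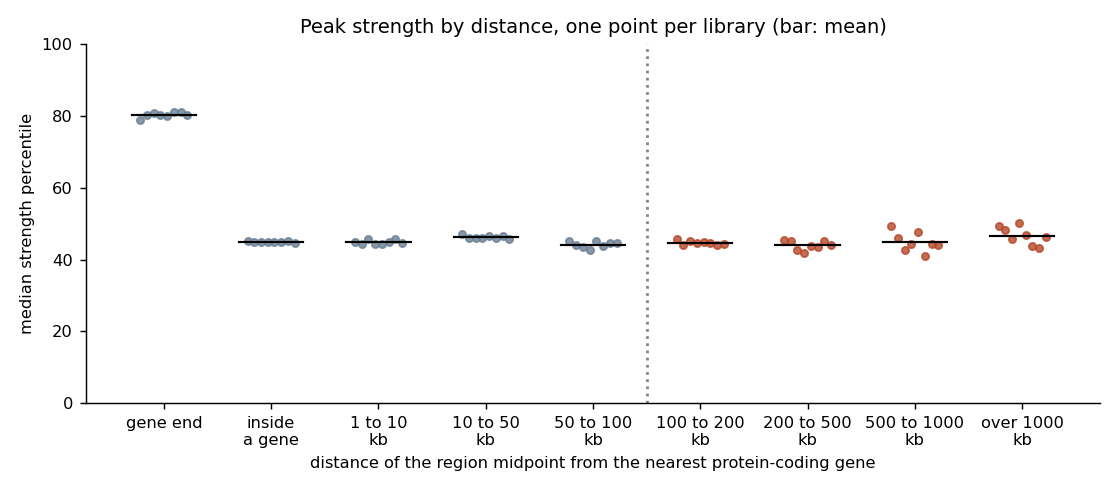
Median strength percentile (y, 0 to 100) of the peaks in each class of distance from the nearest protein-coding gene (x), 1 point per library and a bar at the mean. Gene ends lie near 80.3 and every other class, far regions right of the dotted line included, between 43.9 and 46.7.

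Set only against the 57294 regions that lie outside gene bodies and over 1 kb from gene ends, a choice added after seeing the data, the strength of far regions differed by -0.952 percentile points (adjusted exact permutation p = 0.0352). Peak width then differed by -2 bp (exact permutation p = 0.242, adjusted 0.311), so that call was lost. The difference in sharing by all 8 libraries was -4.23 points and that in sharing by both replicates -1.74 points (both adjusted exact permutation p = 0.0352). With peaks compared within 10 equal bins of strength, the difference was -3.93 points for all 8 and -1.04 points for both replicates (adjusted exact permutation p = 0.0176 and 0.0469), the latter in 6 of 8 libraries.

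The values just outside and just inside the limit of 100 kb are given as a description. Of the 1320 regions at 90 to 100 kb, 624 were in at least 1 equal-number list. Those listed had a strength of 44.2 ± 2.33 (SD, n = 8), and 34.5% of them were in all 8 lists. Of the 1163 regions at 100 to 110 kb, 560 were listed. These had a strength of 45.3 ± 2.22, and 33.0% of them were in all 8.

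Neither genotype nor IL-2 moved the strength of far regions beyond the spread of the libraries. The median percentile was 44.1 in cDKO and 44.8 in control libraries, a difference of -0.729 (exact permutation p = 0.2, adjusted 0.257). It was 44.3 with IL-2 and 44.6 without, a difference of -0.254 (exact permutation p = 0.743, adjusted 0.743). Without control with IL-2 replicate 2 the genotype difference was -1.08 (exact permutation p = 0.0286, adjusted 0.0469), and with regions on unplaced sequences included it was -1.01 (exact permutation p = 0.0286, adjusted 0.0429). In the latter setting, a region on an unplaced sequence without a protein-coding gene counted as far.

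A few far regions were among the strongest peaks of the genome. No list of regions with anomalous signal was used here, and the sources used here do not say whether the authors removed such regions, so their part in the values of this and the next paragraphs was not tested. Far regions were 10.8% ± 2.04 (SD, n = 8) of the top 100 ranks, 8 to 15 regions per library, against 3.08% of the top 1000, 3.20% of the top 5000 and 4.51% of the top 20000. Their median width within the top 100 was 326 to 534 bp, narrower than the 570 to 920 bp of the other regions there.

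The strongest far region was chr12:3109805-3110136, 137 kb from Rab10, a gene for a small GTPase. It took rank 1 or 2 in every library. The authors' fold over background at its best peak was 36.2 and 41.5 in control without IL-2, 41.4 and 40.6 in cDKO without IL-2, 37.4 and 40.2 in control with IL-2, and 40.7 and 39.7 in cDKO with IL-2. All 8 values lay close together and the groups overlapped. The next, chr12:97061340-97061873, lay 1141 kb from Galc and took rank 3 or 4 in each library, with folds from 27.9 to 32.1.

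The nearest genes of the other 8 of the 10 strongest far regions were of varied kinds. Region chr19:61331236-61331588 lay 103 kb from Csf2ra, which encodes a subunit of the GM-CSF receptor, at ranks 6 to 16. Region chr3:5860327-5860872 lay 282 kb from Pex2, a gene of peroxisome assembly, at ranks 6 to 18. Region chr1:195371615-195372024 lay 195 kb from Cr2, a complement receptor gene of B cells, at ranks 6 to 21. Each of these 3 stood within the first 21 ranks of every library, whatever the group.

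Region chr5:60042720-60043162 lay 1766 kb from G6pd2 at ranks 5 to 36, and chr6:9889848-9890258 lay 640 kb from Nxph1 at ranks 17 to 39. Region chr14:124801535-124802244 lay 124 kb from Fgf14, a gene known from neurons, at ranks 20 to 183. Region chr6:3200737-3201644 lay 171 kb from Samd9l at ranks 67 to 410. Of these 10 regions, only chr3:52554677-52555601 had a gene of the T cell lists as its nearest. It lay 205 kb from Foxo1, which encodes a transcription factor that keeps T cells naive.

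At the Foxo1 region the fold was 16.7 and 19.2 in control without IL-2 and 18.5 and 18.9 in cDKO without IL-2. It was 17.5 and 18.8 in control with IL-2 and 20.0 and 19.1 in cDKO with IL-2. The cDKO libraries with IL-2 had the best ranks, 50 and 38, against 88 to 215 in the other 6, though the folds of cDKO and control overlapped across the series. Ranks and folds are set within each list, so no test compared them between libraries. Folds also differed in scale. Their median over the far regions of an equal-number list ran from 6.25 in control with IL-2 replicate 2 to 10.2 in control without IL-2 replicate 1.

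A pair of strong far regions, singled out after their values were seen, had low folds for their rank. Region chr2:98666235-98667338, 1035 kb from Lrrc4c, ranked 23 to 1235 with a median fold of 6.19, and chr14:19416888-19418352, 116 kb from Gm2244, ranked 29 to 556 with a median fold of 7.44. The median fold of the top 1000 peaks was 14.2 to 17.3 over the libraries.

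Among far regions in the equal-number lists, great distance did not go with weak peaks, as the values by distance above show. The share that reached any such list was lowest at the greatest distance. It was 3501 of 7162 from 100 to 200 kb, 2197 of 4822 from 200 to 500 kb, 511 of 1119 from 500 to 1000 kb and 86 of 236 beyond. Of the far regions in all 8 lists, chr1:102628144-102628407 was the most distant, 2138 kb from Cntnap5b, which encodes a neuronal adhesion protein. Its fold was 37.2 and 27.3 in control without IL-2, 34.6 and 32.0 in cDKO without IL-2, 33.2 and 24.99 in control with IL-2, and 32.5 and 35.8 in cDKO with IL-2. The second replicate of each control group was lowest, and genotypes overlapped. Those libraries also had the lowest median folds over all their listed far regions, 7.85 without IL-2 and 6.25 with it, against 8.54 to 10.2 in the others.

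The other 4 of the 5 most distant regions varied widely in strength. Region chr14:90911113-90911365 lay 2102 kb from Pcdh9, a protocadherin gene, at ranks 18610 to 26759. The G6pd2 region above was the third, at 1766 kb. Region chr1:101902058-101903081 lay 1412 kb from Cntnap5b at ranks 7969 to 36204, and chr3:111798617-111798932 lay 1349 kb from Amy2b at ranks 22434 to 61332. At chr1:101902058-101903081 both cDKO libraries with IL-2 had a fold of 9.3, the lowest of the 8, which ran up to 15.96.

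Most far regions had their midpoint outside any annotated gene body, though their edges could reach into one. By midpoint, 9807 (73.5%) lay outside every gene body of the table and 2776 (20.8%) in an lncRNA gene body. A further 591 (4.43%) lay in an antigen receptor locus, 151 (1.13%) in a pseudogene and 14 in a small RNA gene. Of those in at least 1 equal-number list, 41.1% in receptor loci and 38.2% in lncRNA bodies were in all 8 lists, against 30.9% outside genes. Mean strength was 47.7 ± 0.897 (SD, n = 8) in lncRNA bodies, 46.9 ± 3.30 in receptor loci and 43.0 ± 1.01 outside genes. In all, 189 non-coding genes had a body end in one of 183 far regions that every library listed. The strongest of these regions, chr18:79303283-79304249, lay at an end of the pseudogene Gm2116, 193 kb from Setbp1, with a median fold of 17.0.

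Antigen receptor loci are long arrays of gene segments that lymphocytes join by recombination. The Tra/Trd locus, which encodes the T cell receptor α and δ chains, spanned chr14:52427967-54224198 and held 313 far regions. Of these, 202 were in at least 1 equal-number list and 89 in all 8. Per library there were 145 and 133 in control without IL-2, 158 and 163 in cDKO without IL-2, 133 and 134 in control with IL-2, and 142 and 151 in cDKO with IL-2. Both cDKO libraries exceeded both control libraries within each IL-2 arm, by 8 regions at the closest, a difference that was not tested.

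The open DNA of the Tra/Trd locus lay close to its segments, with distance taken from the midpoint of each region. The midpoint lay within 1 kb of a segment in 191 of 313 far regions and inside one in 66. The median distance was 0.219 kb. The strongest, chr14:52863072-52864249, covered the V segment Trav15d-1-dv6d-1, with folds of 14.1 and 14.2 in control without IL-2, 16.6 and 15.3 in cDKO without IL-2, 12.9 and 11.8 in control with IL-2, and 14.5 and 12.9 in cDKO with IL-2. Among regions of the locus called by genotype (defined below), 2 were higher and 2 lower in cDKO.

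The immunoglobulin heavy chain locus Igh, which B cells rearrange and which the sorted cells do not use, spanned chr12:113256204-116009954 and held 232 far regions. Of these, 146 were in at least 1 equal-number list and 57 in all 8. Per library there were 109 and 104 in control without IL-2, 104 and 111 in cDKO without IL-2, 97 and 84 in control with IL-2, and 95 and 100 in cDKO with IL-2. The 4 libraries with IL-2 each had fewer than the 4 without, which was not tested. The strongest covered the V segments Ighv1-74 (chr12:115802425-115803209, median fold 17.0) and Ighv14-2 (chr12:113994238-113995112, median fold 20.1).

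B cell marker genes were nearest to 9 far regions, 7 at Bank1 and 2 at Ebf1, and none of the 9 was in all 8 lists. The 12 genes of that list were nearest to 17 other regions in all 8, 0.0441% of them. Whether B cells had a part in the Igh signal was not tested. The other receptor loci held few far regions, 27 at the immunoglobulin κ locus, 16 at the T cell receptor β locus, 2 at the γ locus and 1 at the immunoglobulin λ locus. The κ locus held few open regions of any kind, 37 in all, while 16 of 93 at the β locus and 2 of 22 at the γ locus were far.

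Far regions were crowded into a small part of the available desert. The genome held 1689 gene-free intervals, meaning gaps of over 200 kb between protein-coding genes, with 785 Mb lying over 100 kb from both flanking genes. Far regions occurred in 1159 of them and in none of the other 530, and the 109 fullest held at least as many of the 13223 far regions as all the rest together. A further 116 lay before the first or beyond the last gene of a chromosome. The mean density was 16.8 far regions per Mb, or 2.62 per Mb for those in all 8 lists.

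The 10 intervals with most far regions held 11.5% of them in 11.7 Mb. Ranked instead by regions in all 8 lists, the first 10 intervals held 17.5% of such regions. By number of far regions, the first 2 were the receptor loci. These were the Tra/Trd interval between Gm36448 and Dad1 with 313 and the Igh interval between Adam6a and Zfp386 with 222. The third was the desert between Myc, the growth and proliferation factor, and Gsdmc, with 187 far regions, 44 of them in all 8 lists. Per library the Myc desert held 70 and 65 in control without IL-2, 64 and 67 in cDKO without IL-2, 73 and 68 in control with IL-2, and 67 and 81 in cDKO with IL-2. The groups overlapped. Its density, 118 per Mb, compares with a median of 2.81 per Mb over the 227 intervals longer than 1 Mb.

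The next 5 intervals were flanked by genes of several kinds. Between Id2, which encodes an inhibitor of E-protein transcription factors, and Rnf144a lay 136 far regions. Between Agtr1b and Tbl1xr1, the latter a subunit gene of a nuclear co-repressor complex, lay 117. Between Sall3 and Galr1 lay 116. Between Ptger4, the gene for a prostaglandin E2 receptor, and Dab2, an endocytic adaptor gene, lay 113. Between Runx1, a transcription factor gene of blood cells, and Setd4 lay 109, of which 28 to 36 were listed in each library without IL-2 and 27 to 32 in each library with it.

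**Figure D3:**
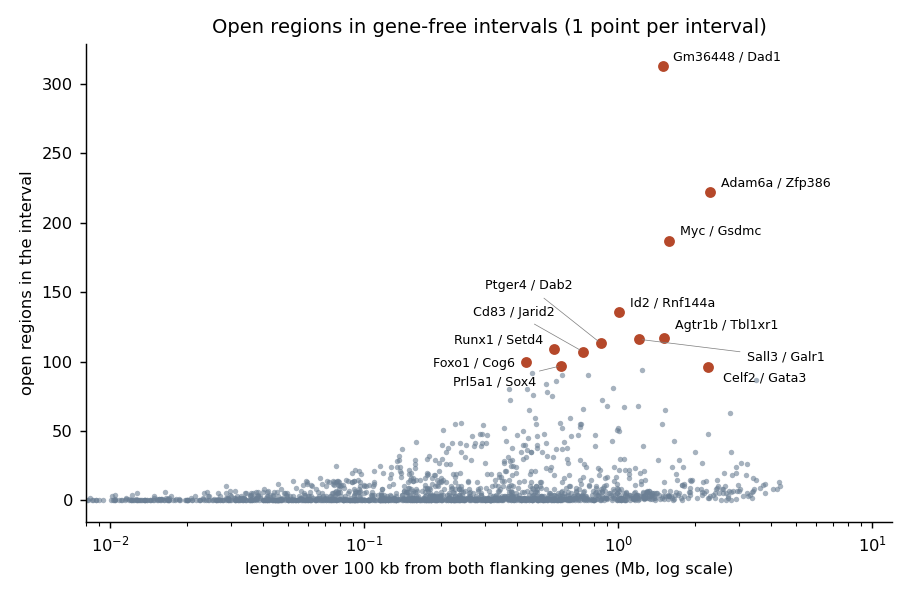
Number of far regions (y) against the length lying over 100 kb from both flanking genes (x, Mb, log scale), 1 point per gene-free interval (those shorter than the axis start are not drawn), with the 12 fullest in red under their flanking genes. The Tra/Trd interval (Gm36448 / Dad1) stands highest with 313, and most long intervals lie near 0.

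Most other long deserts had few listed regions. The longest, 4542 kb between the protocadherin genes Pcdh20 and Pcdh9, held 10 far regions, 2.30 per Mb of the part over 100 kb from both, and 1 in all 8 lists. The 4420.4 kb between Olfm4 and Pcdh17 held 8 and none in all 8. Among the longest, the desert from Zeb2 to Acvr2a stood apart with 87 far regions, 24.9 per Mb, of which 10 were in all 8 lists. Of the 227 intervals longer than 1 Mb, 139 had no region in all 8 lists. Among intervals with at least 10 far regions, the densest were short: Ankrd1 to Pcgf5 (351 per Mb), Smim20 to Rbpj (324), Cpsf6 to Cpm (267), Ly86 to Rreb1 (264) and Tnfaip3 to Olig3 (262). Rbpj encodes the nuclear effector of Notch signalling, and Tnfaip3 encodes the NF-κB inhibitor A20.

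Far regions had close neighbours less often than other regions did. Within a library, 57.9% of far regions had another listed region within 10 kb, against 69.6% of the others, a difference of -11.7 points (SD 0.686, lower in 8 of 8 libraries, exact 2-sided sign-flip permutation p = 0.00781, adjusted 0.0141). Against regions outside genes and gene ends alone, the difference was -13.3 points (adjusted exact permutation p = 0.0352). The median gap between successive far regions was 6.72 kb, with quartiles at 1.95 and 24.9 kb.

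When far regions with gaps of up to 10 kb were joined, they formed 5493 clusters. Single regions made up 3094 of these (23.2% of far regions), and 173 clusters of at least 10 regions held 20.2% of far regions. With only the 2088 regions in all 8 lists, there were 1512 clusters, 1163 of them single, and the largest held 18. At a gap of 25 kb, clusters of at least 10 held 53.2% of all far regions, so cluster size depends on the gap chosen.

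The fullest cluster, chr9:3000017-3038271, held 46 far regions at the very start of the assembled part of chromosome 9, 297 to 335 kb from Alkbh8. Whether anomalous signal had a part in this cluster was not tested either. Its median fold was 2.59, lower than in the next 12 clusters, where it was 4.41 to 6.23. It held 22 and 37 listed regions in control without IL-2, 36 and 35 in cDKO without IL-2, 37 and 27 in control with IL-2, and 31 and 29 in cDKO with IL-2. Replicates of control differed more than the genotypes did.

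Of the next 4 clusters, 1 lay in a T cell receptor locus and the others beside genes outside the lists used here. The one in the Tra/Trd locus, chr14:53253552-53379032, held 42 far regions, with 17 to 23 per library. One between Bcl2l11, the gene for the pro-apoptotic protein Bim, and Spdye4c, chr2:128364286-128487518, held 36, of which 14 were in all 8 lists, and contains the Morrbid start printed above. Its number per library was 17 and 20 in control without IL-2, 18 and 20 in cDKO without IL-2, 17 and 17 in control with IL-2, and 19 and 21 in cDKO with IL-2. Clusters nearest to Tbl1xr1 (chr3:21878422-21973452) and Sox4 (chr13:28684990-28793388) held 35 and 34.

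At the Sox4 cluster, whose gene encodes an HMG-box factor known to be induced by TGF-β in T cells, 14 and 15 regions were listed in cDKO without IL-2 against 9 to 11 in the other 6 libraries. Over the whole interval from Prl5a1 to Sox4, there were 37 to 43 regions in the 4 libraries without IL-2 and 29 to 31 in the 4 with it. These counts were not tested, and the interval was singled out after they were seen. The cluster at the Firre locus, chrX:50560981-50635735, had 28 far regions and the largest share in all 8 lists of the 13 fullest clusters, 15 of 28.

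**Figure D4:**
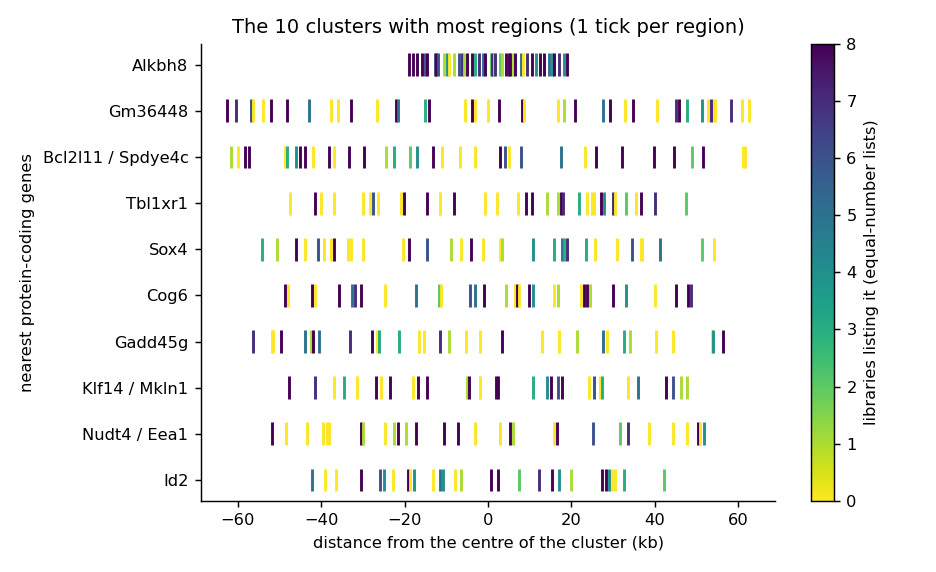
The 10 clusters with most far regions, 1 row each, labelled by the nearest protein-coding genes, with 1 tick per region at its distance from the cluster's centre (x, kb) and colour for the number of equal-number lists holding it. The cluster near Alkbh8 is the shortest and most crowded, and in the others regions in all 8 lists lie among regions in 1 list or none.

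Genes of T cell lists were nearest to many far regions. The lists hold 197 genes in 11 groups and were chosen with earlier results of these data known, so their counts are a description. Genes of the naive and memory T cell list were nearest to 376 far regions, 76 of them in all 8 lists, which is 3.64% of far regions in all 8 against 0.646% of other regions in all 8. The list is made up of 18 genes, of which 11 had a far region. The strongest of these regions by gene lay at Foxo1 (above), at Ets1 (chr9:32915533-32916226, 158 kb away, fold 11.3), at Lef1 (chr3:130936925-130937380, 173 kb, fold 15.2) and at Satb1 (chr17:52162272-52163348, 330 kb, fold 9.7). Folds here are medians over libraries, and all 4 genes encode transcription factors or chromatin organisers of T cells.

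Genes of the IL-2 and STAT5 list were nearest to 189 far regions, 45 in all 8 lists (2.16% against 0.306% of other regions), but only 2 of its 21 genes had any. Myc had 178 and the cyclin gene Ccnd2 11. The strongest region nearest to Myc was chr15:61546412-61546995, 439 kb away on the side opposite Gsdmc. Its fold was 22.6 and 21.4 in control without IL-2, 20.9 and 19.8 in cDKO without IL-2, 20.4 and 21.1 in control with IL-2, and 22.05 and 23.6 in cDKO with IL-2. Without IL-2 both control folds exceeded both cDKO folds, and with IL-2 both cDKO folds exceeded both control folds. Across the IL-2 arms the genotypes overlapped, and none of this was tested.

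Genes of the helper fate list were nearest to 197 far regions, 44 in all 8 lists (2.11% against 0.340%). Gata3, the gene of the Th2 factor, had 94, the strongest at chr2:9683680-9684808, and Bcl6, the gene of the follicular helper factor, had 25. Ahr had 26 and Ifng had 18. The regulatory T cell list had 73, at Nrp1 (34), Icos (28), Ikzf2 (10) and Nt5e (1), with 8 in all 8 lists (0.383% against 0.334%). That share is close to the one among other regions.

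The TGF-β and SMAD list had 25 far regions, 10 in all 8 lists (0.479% against 0.371%): 16 were nearest to the receptor gene Tgfbr2, 7 to Pmepa1 and 2 to Smad2. The activation list had 66 far regions, 13 in all 8 lists (0.623% against 0.381%). Of the 66, 26 were at Jun and 27 at Nr4a3. The DNA methylation list had 18, of which 13 lay at Tet2 and 5 at Mbd2, with 1 in all 8. Tet2 is the family member not deleted in the cDKO cells.

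Lists for other cell types had few far regions that every library held, though the neuronal share too was higher than among other regions. The CD8 and NK cell list had none at all, the B cell list 9 with none in all 8, and the myeloid list 4, all at Cebpb, with 2 in all 8. Neuronal genes, which often flank deserts, were nearest to 53, with 4 in all 8 lists (0.192% of far regions in all 8 against 0.0519% of other regions in all 8), 1 each at Cntnap2, Csmd3, Pcdh9 and Cdh12.

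Far regions were then compared between groups by listing. A region is called higher on a side when every library of that side lists it and none of the other side does. With equal numbers of libraries per side, only a region listed in exactly as many libraries as a side holds could be called, and counts are given as shares of those. In the genotype comparison, 468 far regions could be called. Of these, 50 (10.7%) were higher in cDKO, against 11% among all regions, and 90 (19.2%) were lower, against 17.4% among all regions. Both shares were near the background, with more lower than higher.

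For IL-2, 27 of 468 far regions (5.77%) were higher with IL-2, against 5.42% among all regions, and 15 (3.21%) lower, against 3.58%. With the deposited lists the balance differed. By genotype, 44 of 866 far regions were higher and 33 lower (4.84% and 4.76% among all regions). By IL-2, 8 were higher and 39 lower (0.527% and 3.65% among all regions). A region called in the deposited lists had no peak at all on the other side.

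**Figure D5:**
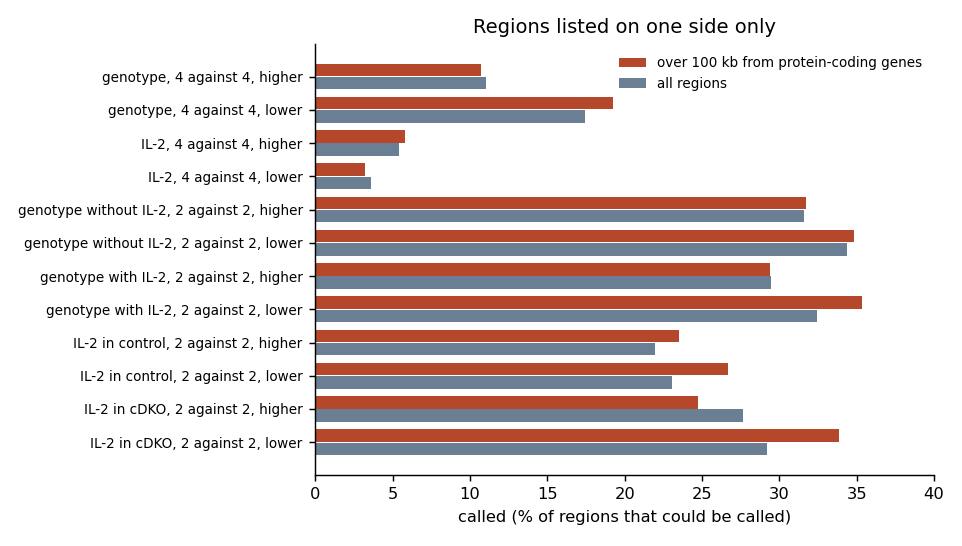
Regions called in each comparison as a percentage of the regions that could be called (x), for far regions and for all regions, by comparison and direction (y), equal-number lists. The 2 bars of a pair differ by at most a few points, for example 10.7% and 11% for regions higher in cDKO.

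Within the IL-2 arms, 2 libraries were set against 2. Without IL-2, 286 of 901 far regions were higher in cDKO and 314 lower, against 31.6% and 34.4% among all regions. With IL-2, 261 of 888 were higher and 314 lower, against 29.4% and 32.4%. With the deposited lists these were 228 and 536 without IL-2 (12.7% and 32.5% among all regions) and 493 and 123 with IL-2 (30.9% and 7.93%). In each case the side with more deposited peaks in total had more calls.

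Adding IL-2 to control cells gave 186 higher and 211 lower of 791, against 22% and 23% among all regions. In cDKO cells it gave 182 higher and 249 lower of 735, against 27.7% and 29.2%. With the deposited lists these were 35 and 480 in control (1.62% and 24.9% among all regions) and 316 and 294 in cDKO (23.7% and 20.7%). The comparisons share libraries, and the difference between arms was not tested.

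Few far regions were called by both kinds of list. Only 16 far regions were in exactly 4 lists of both kinds and so could be. Of these, 11 were lower in cDKO, against 60.9% among the 215 such regions of all classes, and 1 was higher, against 13.5%. For IL-2, 1 was higher and 0 lower, against 0.465% each, which is 1 region of all classes in each direction. The excess of lower over higher by genotype was thus shared by all regions, and no count this small sets the far regions apart. The 8 strongest of the 11 included a neighbouring pair nearest to Arrdc4, an arrestin-domain gene. The pair lay at chr7:68882253-68882580 and chr7:68884535-68885067, both inside the lncRNA gene Gm34664. At the first, the fold was 12.2 and 12.3 in control without IL-2 and 9.6 and 6.0 in control with IL-2, and no cDKO library listed a peak. At the second it was 9.1, 7.8, 7.8 and 6.1 in the same libraries.

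Another, chr9:32901175-32901810, lay 144 kb from Ets1, with folds of 10.5 and 7.3 in control without IL-2 and 8.3 and 5.1 in control with IL-2. The next, chr11:44164160-44164501, lay 236 kb from Il12b, the gene for the shared subunit of IL-12 and IL-23, with folds of 9.4, 6.6, 7.7 and 4.5. The others were nearest to Kcnrg (chr14:61739573-61739842), Thrb (chr14:17409582-17410065), Man1a (chr10:54188945-54189164) and Tmc3 (chr7:83438526-83438871). All 8 ranked between 19073 and 59205 in the 4 control lists, so none was among the strong far regions.

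The only far region higher in cDKO by both kinds of list was chr4:38508338-38508542, 942 kb from 1700009N14Rik. Its fold was 11.97 and 9.99 in cDKO without IL-2 and 7.4 and 8.4 in cDKO with IL-2, with no peak in any control library. Of the others called higher in equal-number lists only, chr14:53599350-53599661 in the Tra/Trd locus had folds of 8.3 to 9.2 in cDKO. In control it had 6.4 and 4.1 without IL-2 and 4.5 in replicate 1 with IL-2, and no peak in replicate 2. Regions nearest to Lemd2 (chr17:27308958-27309348), Rasgef1b (chr5:99387153-99387875) and the co-repressor gene Bcor (chrX:11899152-11899729) likewise kept weaker peaks in some control libraries. Chromosome 6, which carries Tet3, held 2 far regions among the 50 called higher and 2 among the 90 called lower. Without that chromosome, 48 of 448 far regions that could be called (10.7%) were higher and 88 (19.6%) lower. In the deposited lists it held 3 of the 44 called higher and 4 of the 33 called lower. By both kinds of list it held 1 of the 11 lower. Of all 13339 far regions, 589 lay on it.

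With IL-2, the region called higher by both kinds of list was chr18:83862967-83863204, 148 kb from Tshz1. Its fold was 7.7 and 4.0 in control and 8.5 and 10.7 in cDKO, and no library without IL-2 listed it. In equal-number lists alone, chr8:127993751-127994103, 365 kb from Nrp1, a surface marker gene of regulatory T cells, had folds of 9.6 and 6.2 in control with IL-2 and 9.2 and 11.7 in cDKO with IL-2. Without IL-2 it had 4.9 in control replicate 1, none in replicate 2, and 4.6 and 6.3 in cDKO, so the groups overlapped only at 6.2 and 6.3. The 6.2 came from control with IL-2 replicate 2, whose median fold over far regions, 6.25, was the lowest of the 8 libraries. Others were nearest to Abca13 (chr11:10379204-10379574) or Slc30a8 (chr15:52173696-52174367), or lay in the Igh locus (chr12:114659751-114660090).

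Regions lower with IL-2 were called in equal-number lists only. The clearest by fold, singled out after the values were seen, was chr19:14336352-14336709, 111 kb from Tle4, a Groucho-family co-repressor gene. Its fold was 10.8 and 8.2 in control without IL-2 and 14.3 and 13.4 in cDKO without IL-2. With IL-2, control libraries listed no peak and cDKO libraries had 4.9 and 4.2. A pair in the Id2 interval, chr12:26187497-26187776 and chr12:25994160-25994411, both nearest to Rnf144a, had folds of 5.6 to 8.5 without IL-2 and at most 5.8 with it. Regions nearest to Gm52008 (chr12:106926037-106926405) and Man2a1 (chr17:64499299-64499644) made up the rest of those named.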

How the data were processed

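ATAC-seq was deposited as 1 peak list per library, 8 in all with 835203 peaks. Peak calling can be traced only to tool names: MACS2 2.2.7.1, Bowtie2 2.4.1, Trimmomatic 0.39, SAMtools 1.3.1 and Picard appear in the submitters' processing notes, as do HOMER 4.11.1, ChIPseeker 1.18.0, DiffBind 2.10.0 and the mm10 build. Read shifting, duplicate handling and peak settings: not given in the sources used here. For each peak the authors deposited a fold over background (a ratio), a −log10 p-value and a −log10 q-value. Nothing was taken from the score that the authors deposited beside them. No listed q-value exceeded 0.05. The fold, the −log10 p and the ranks made from it are the authors' values for each peak, and no test compared them between libraries for a single region.

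Peaks of all 8 lists were merged at an overlap of at least 1 bp, and regions whose midpoint lay over 100 kb from each of 21887 protein-coding gene bodies (RefSeq table of GRCm38.p6) were taken. The members, gene lists and tests were chosen with earlier results of these data known. Each list was cut to its 65811 peaks of highest −log10 p. Values per library were compared between groups by exact 2-sided permutation tests (70 relabellings, smallest p 0.0286), and between region classes by exact sign-flip permutation tests (256 flips, smallest p 0.00781). Within 1 arm, 2 libraries against 2 got no test. Benjamini-Hochberg adjustment ran over 9 tests.

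By rule the text names the 10 strongest and 5 most distant far regions in all 8 lists, up to 8 regions per direction called by both kinds of list (filled to 5 from equal-number calls), the 8 fullest and 5 densest intervals, the 5 fullest clusters, 8 non-coding genes with an end in a strong far region, and up to 4 genes per list. Others complete a count or are said to have been singled out. Other settings were the deposited lists, a halved list length, limits of 50 and 200 kb, distance from every gene of the table, peaks covering at least 50% of a region, a minimum −log10 q of 3, unplaced sequences, the replicate block, peaks compared within 10 equal bins of strength, neighbour distances of 5 and 25 kb, and each library left out. Leaving out chromosome 6 or the antigen receptor loci, and setting far regions against regions outside genes and gene ends, were settings chosen after seeing the data. Of 197 listed genes, 196 matched the table by symbol. No genome sequence was used here, so region sequences and motifs in regions were not analysed. Python 3.11.15, numpy 2.4.6 and pandas 2.3.3 were used, and the code was tested on simulated data.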

Additional observations from a re-analysis of the deposited data

Results flagged for a closer look

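Peaks on unplaced sequences of the assembly belong to none of the main comparisons above. They entered only the setting that includes unplaced sequences, where a region on a sequence without a protein-coding gene counted as far. Peaks on unplaced sequences formed 295 regions, which is 0.168% of all regions. The deposited lists held 85 to 194 such peaks per library, the fewest in control with IL-2 replicate 2 and the most in control without IL-2 replicate 1, which also have the shortest and the longest list. In the equal-number lists they made up 60 to 81 regions per library. No outlier test was run within groups, since each group has 2 libraries.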

How the results depend on the processing

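The differences of far from other regions in strength, sharing by all 8 libraries and neighbours kept their direction and their side of the threshold in every setting run. Sharing by both replicates kept them except on leaving out some libraries. With a library left out it was -3.49 to -3.38 points (adjusted exact permutation p from 0.0469 to 0.0563). Fewer libraries then kept a mate, so the smallest possible p was larger than in the main test. Peak width kept them except against regions outside genes and gene ends (-2 bp).

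The share of far regions by IL-2 (-0.160 points) stayed negative but lost its call with deposited lists (-0.202), halved lists (-0.144), a 50 kb limit (-0.214), every gene of the table (-0.0169), peaks covering at least 50% of a region (-0.243), −log10 q of at least 3 (-0.143), unplaced sequences (-0.151), no chromosome 6 (-0.156), no receptor loci (-0.128), the replicate block (-0.160) and single libraries left out (-0.187 to -0.0983). By genotype the share turned positive with deposited lists (0.122) and ranged from -0.110 to 0.0485 with libraries left out. With every gene of the table it was -0.0315 points and passed the threshold (adjusted exact permutation p = 0.0429).

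The strength of far regions by genotype (-0.729) reversed in halved lists (0.0623), passed with unplaced sequences (-1.01) and ranged from -1.08 to -0.356 with libraries left out. By IL-2 (-0.254) it reversed in halved lists (0.258), at 50 kb (0.197), at 200 kb (0.0144), with every gene of the table (3.33), with that coverage (1.63) and without receptor loci (0.0334), and ranged from -0.514 to 0.198 with libraries left out. The cause was not tested.

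Counts of called far regions moved with the number of regions and libraries used. The 140 by genotype became 77 with deposited lists, 71 in halved lists, 253 at 50 kb, 53 at 200 kb and 7 with every gene of the table. As shares of the far regions that could be called these were 8.89%, 32.3%, 30.5%, 25% and 19.4%, against 9.6%, 31%, 28.5%, 28.5% and 28.5% of all regions, and 29.9% against 28.5% in the main lists. The 42 by IL-2 (8.97%, against 8.99% of all regions) became 36 in halved lists, 83 at 50 kb, 19 at 200 kb and 3 with every gene. These were 16.4%, 10.0%, 8.96% and 8.33%, against 11.7% of all regions in halved lists and 8.99% in the others. With libraries left out the count was 52 to 106, from sides of unequal size. The 600 by genotype without IL-2 became 290, 1064, 268 and 57 in halved lists, at 50 kb, at 200 kb and with every gene. As shares of those that could be called these were 73.2%, 67.8%, 66.5% and 79.2%. Among all regions the share was 67.9% in halved lists and 66.0% in the others. In the same order, the 575 by genotype with IL-2 became 298, 1035, 237 and 40. Their shares were 70.1%, 65.3%, 62.4% and 61.5%, against 65.2% of all regions in halved lists and 61.8% in the others. The 397 by IL-2 in control became 199, 702, 177 and 36, and the 431 in cDKO 255, 786, 204 and 45. In control the shares were 51.6%, 49.6%, 51.3% and 59.0%, against 47.4% of all regions in halved lists and 45.0% in the others. In cDKO they were 69.1%, 60.2%, 59.5% and 60.8%, against 60.7% and 56.9%. These shares were not tested. Leaving out a library, which leaves 1 on a side, gave 600 to 1141, 575 to 1291, 397 to 1154 and 431 to 900 for these 4.

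The replicate block changed no other call, and the numbers are only labels: deviations of same-numbered libraries correlated between -0.0424 and 0.0836 over 4207 regions. The lists give no depth, so whether an unlisted region was closed or undersampled cannot be told.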
